A study of Drosophila melanogaster with 6 samples.

Results

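The genes described here encode subunits of the Polycomb repressive complex PRC1 and of the complex built on Sfmbt, and they were followed in Drosophila S2 cells with and without the linker histone dBigH1. The list held 9 genes, named by symbol: Pc, ph-p, ph-d, Psc, Su(z)2, Sce, Scm, Sfmbt and phol. A member was measured where the array annotation assigned a probe set to that gene alone, which held for 6 of the 9 among 11982 genes measured in all. These were Pc, Psc, Sce, Scm, Sfmbt and phol, each with 1 probe set. ph-p, ph-d and Su(z)2 were not analysed here.

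S2 cells are an embryonic line that resembles blood cells of the macrophage kind. Affymetrix Drosophila arrays measured total RNA of 6 samples, 3 labelled S2 control (wild type S2 cells) and 3 labelled dBigH1 induced, which per the labels' protocols came from cells carrying dBigH1::FLAG. Cells of both groups received 1 mM copper sulphate for 24 h, and dBigH1::FLAG cells had been kept in 0.3 mg/ml hygromycin B but were grown in the S2 medium for the experiment. The control was wild type and not said to carry an empty transgene, so the transgene, its selection and dBigH1 cannot be told apart, and whether the dBigH1 cells were 1 clone was not given in the sources used here.

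Values are log2 signals from RMA, a method that subtracts background, aligns the arrays' distributions and condenses the probes of each probe set into 1 number. A change of 1 is a doubling of the signal. Array medians lay between 6.31 and 6.33, and Pearson's r between arrays was at least 0.9925 over all probe sets, although genes are no replicates of each other. The induced gene itself, BigH1, stood at 5.19 ± 0.295 (SD, n = 3) in S2 control and 13.46 ± 0.0218 (n = 3) in induced cells. Of 12 plasmatocyte and S2 marker genes, 12 had a mean over the median probe set, among them the clotting-protein gene Hml at 11.47 and the collagen gene Col4a1 at 12.43 in S2 control. So did 3 of 3 neuron, 3 of 7 germline, 2 of 4 lamellocyte and 2 of 4 crystal cell markers. Of the ovarian somatic and muscle markers, 1 of 2 and 0 of 3 did. Such a level therefore does not tell cell types apart. Markers did differ between groups. The log2 of the summed signal of the plasmatocyte list was 14.688 to 14.761 in S2 control and 15.004 to 15.025 in induced cells. Of its 12 genes, 6 rose and 3 fell, namely Sr-CI, He and NimC1, with log2 changes of -1.09, -0.71 and -0.35. For the 4 lamellocyte markers the log2 sum was 12.025 to 12.159 and 11.69 to 11.828, with 3 lower. For the 3 muscle markers measured it was 7.585 to 7.811 and 6.067 to 6.24, with 1 lower. The 7 germline markers stood at 11.099 to 11.212 and 11.073 to 11.151, with 3 higher and 1 lower. The 2 ovarian somatic markers stood at 9.169 to 9.325 and 9.587 to 9.671, with 1 higher. The 4 crystal cell markers stood at 8.018 to 8.037 and 7.92 to 8.006, the 3 neuron markers at 10.552 to 10.722 and 10.536 to 10.571, and none of either list passed on its brightest probe set. A dimmer probe set of the neuron marker brp fell (log2 change -0.34), while the other brp probe sets did not pass. The 5′ minus 3′ signal of the Act5C control probe sets, a sign of RNA quality, was -1.26 ± 0.0869 and -1.79 ± 0.0778 (n = 3 each). For the second GAPDH series it was -1.92 ± 0.0443 and -1.73 ± 0.0487, and for GAPDH, actin and eIF-4a it differed by -0.08, 0.03 and -0.08. Their part in any result given here was not tested. RMA gives no value of 0, so no marker could be called absent.

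Polycomb group proteins keep developmental genes, the Hox genes first among them, silent through cell divisions. PRC1 holds Pc, whose chromodomain binds methylated histone H3, with Psc or its relative Su(z)2, the ubiquitin ligase Sce (also called dRing) and a Polyhomeotic protein made from ph-p or ph-d. Sfmbt carries MBT repeats, which bind methylated lysines, and pairs with a DNA-binding protein, Pho or its relative Phol, both related to mammalian YY1. Scm carries MBT repeats and a SAM domain and links Sfmbt to PRC1. The comparison asks how the transcripts of these subunits stood when an embryonic linker histone was made in a cell line that does not normally carry it.

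Sfmbt was the member that rose, with a signal 79.9% higher in induced cells, while the signals of Pc, Sce and Scm differed by 1.32%, 1.38% and -1.36%. Psc and phol stood 8.07% and 10.7% higher but did not pass. Among the 6 members with a value, 1 rose, 0 fell and 5 missed the threshold, set at an adjusted p below 0.05 in limma's moderated test over all 18769 probe sets. Of all 11982 genes, 14.5% rose, 16.0% fell and 30.5% passed in either direction, so 1 of 6 is not a high share. All 6 were brighter than the median probe set, and 42.3% of genes above that level passed. The median change of the members was 0.07 on the log2 scale and that of all genes was -0.01.

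**Figure D1:**
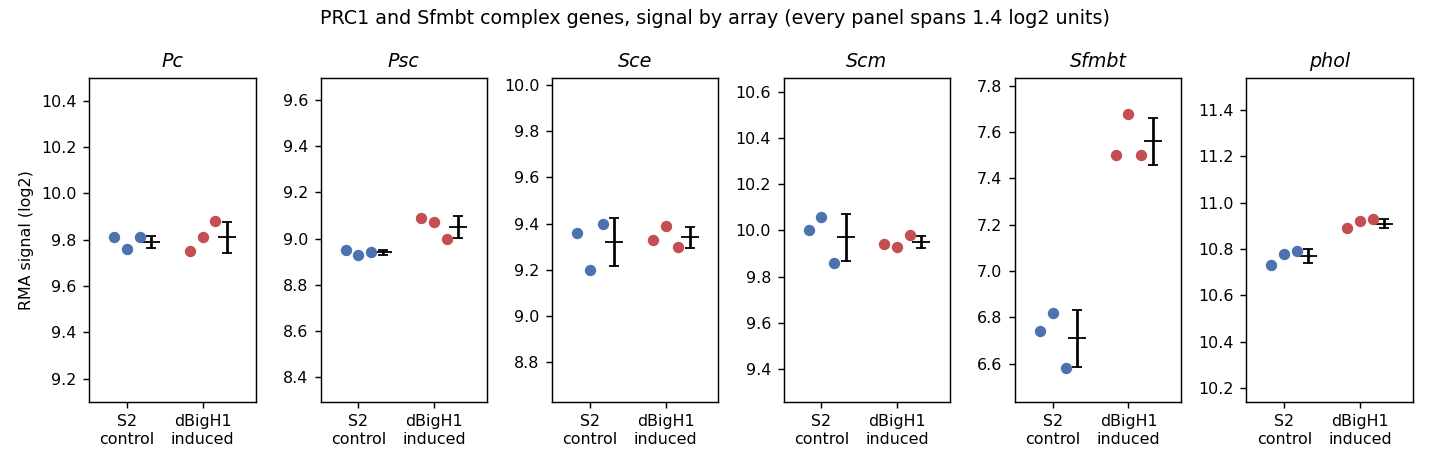
RMA signal (log2, vertical axis) of each measured member on the 3 S2 control arrays (blue) and the 3 dBigH1 induced arrays (red), with the mean and SD of each group in black; every panel spans the same number of log2 units. The Sfmbt means lie 0.85 apart. The arrays of both groups overlap for Pc, Sce and Scm but not for Psc and phol.

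Pc reads the histone mark of Polycomb silencing. Its S2 control arrays read 9.81, 9.76 and 9.81, and its induced arrays read 9.75, 9.81 and 9.88. The groups overlapped, with the lowest and the highest array both in the induced group. The means were 9.79 ± 0.0248 and 9.81 ± 0.0652 (SD, n = 3 each), a log2 change of 0.02 (SE 0.05, 95% interval -0.10 to 0.14, limma adjusted p = 0.8473). The interval spans a fold of 0.932 to 1.10.

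Sce, the ligase that ubiquitinates histone H2A, read 9.36, 9.20 and 9.40 in S2 control and 9.33, 9.39 and 9.30 in induced cells. All induced arrays fell inside the range of the control arrays. The change was 0.02 (SE 0.06, interval -0.12 to 0.16, limma adjusted p = 0.8662). Control replicate 2 read lowest, and without it the change was -0.04.

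Psc, which compacts nucleosome arrays and activates the ligase, read 8.95, 8.93 and 8.94 in S2 control and 9.09, 9.07 and 9.0 in induced cells. Every induced array stood above every control array, as was so for 45.4% of all genes in one direction or the other. The difference was small, from 8.94 ± 0.0116 to 9.05 ± 0.0487 (n = 3 each), a log2 change of 0.11 (SE 0.05, interval -0.0013 to 0.23). It did not pass (limma adjusted p = 0.1409), and the upper end of the interval is a fold of 1.17. Psc and Su(z)2 lie near each other on chromosome arm 2R in RefSeq's gene table, with CG33798 next to both. CG33798 was dim, at 3.52 in S2 control and 3.61 in induced cells, and did not pass. CG13321, on the other side of Psc, fell, with a log2 change of -0.47 (SE 0.08, limma adjusted p = 0.002089).

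Scm read 10.00, 10.06 and 9.86 in S2 control and 9.94, 9.93 and 9.98 in induced cells. The induced arrays again lay within the control range. Its log2 change was -0.02 (SE 0.06, interval -0.16 to 0.12, limma adjusted p = 0.8612), and 0.02 without control replicate 2. For Pc, Psc, Sce and Scm, the 4 measured subunits on the PRC1 side, the outermost interval ends were -0.16 (Scm) and 0.23 (Psc).

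**Figure D2:**
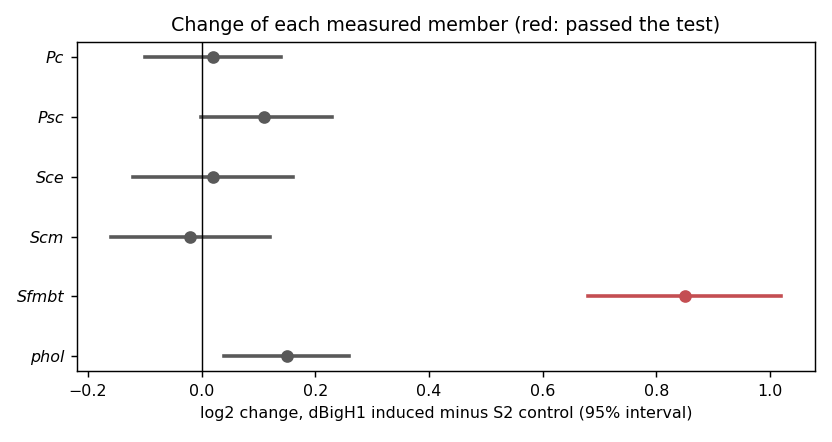
Log2 change (dBigH1 induced minus S2 control, horizontal axis) of each measured member, with the point as the estimate and the line as its 95% interval from limma; red marks the gene that passed. Sfmbt stands at 0.85, and the intervals of Pc, Psc, Sce and Scm include 0. That of phol, at 0.15, does not, although phol did not pass after adjustment.

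Sfmbt read 6.74, 6.82 and 6.58 on the S2 control arrays and 7.50, 7.68 and 7.50 on the induced arrays. The groups were well apart, with a gap between them several times the spread within either. The mean rose from 6.71 ± 0.123 to 7.56 ± 0.102 (SD, n = 3 each), a log2 change of 0.85 (SE 0.08, interval 0.68 to 1.02, limma adjusted p = 3.445e-05). This is a 1.80-fold change of the signal, with an interval of 1.60 to 2.03. Among the 1739 genes that rose, 71 rose by more. Sfmbt was also the dimmest measured member in S2 control, at the 54.4 percentile of all probe sets there and at the 61.7 percentile in induced cells. Background compresses the differences of dim probe sets, and Sfmbt, at 6.71 in S2 control, lay not far above the median probe set at 6.33. Whether its fold was affected was not tested. In 14 alternative settings the change lay between 0.78 and 0.90 and passed in 14.

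phol encodes the DNA-binding partner of Sfmbt that was measured, while its relative pho was not analysed here. It was the brightest member, with control arrays at 10.73, 10.78 and 10.79 and induced arrays at 10.89, 10.92 and 10.93. The groups did not overlap and each was tight. The change of 0.15 (SE 0.05, interval 0.04 to 0.26) came close to the threshold but did not pass (limma adjusted p = 0.051), and its fold of 1.11 had an interval of 1.03 to 1.20. It passed in 5 of 14 alternative settings, with adjusted p-values of 0.01036 to 0.1523. As phol had 1 probe set, leaving out dim probe sets or averaging probe sets did not alter its own values. The Sfmbt interval lay wholly above that of phol, although the difference between these changes was not tested.

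The genes next to the 6 measured members on the chromosome were read as well, chosen by position in RefSeq's gene table (Release 6) after the members' values had been seen. Of 13 measured neighbouring or overlapping protein-coding genes, 1 rose, 4 fell and 8 did not pass, beside 30.5% of all genes that passed. The measured genes on either side of Sfmbt on chromosome arm 2L are Sirt1, a sirtuin deacetylase gene, with a log2 change of -0.03, and CG5439, with 0.07. Neither passed. A further gene, CG43925, overlaps Sfmbt and was not measured on its own, so whether it adds to the signal was not tested. CG7632 overlaps Pc and fell by 0.29 (SE 0.05, limma adjusted p = 0.00222). SpdS, for spermidine synthase, overlaps Scm and rose by 0.35 (SE 0.06, limma adjusted p = 0.00253). Pc and Scm themselves stood at 0.02 and -0.02. The other neighbours that fell were CG13321 beside Psc, CG12883 beside Sce and Dh44 beside Scm, with log2 changes of -0.47, -0.42 and -0.65.

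By likeness of profile, the named gene nearest to Sfmbt was l(2)41Ab, out of 4483 candidates above the median level. The root mean square difference between both profiles was 0.0648 log2 units over 6 arrays, after each was set to its own control mean. l(2)41Ab itself changed by 0.77 (SE 0.07), and a change near that of Sfmbt follows from how the gene was chosen.

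Other genes of the Polycomb system were taken from 6 lists. PRC2 places the histone H3 methylation that Pc binds. Of its 8 measured genes, 2 rose, 0 fell and 6 did not pass (median 0.06). All 8 lay above the median level, where 42.3% of genes passed in either direction. Pcl, an accessory subunit that strengthens methylation, read 9.86, 9.92 and 9.85 in S2 control and 10.16, 10.07 and 10.13 in induced cells, a rise of 0.25 (SE 0.05, limma adjusted p = 0.005951). jing, a zinc finger gene, rose by 0.23 (SE 0.06, adjusted p = 0.01377) on its brighter probe set and stood at 0.04 on the dimmer one, and the mean of both did not pass (0.13, adjusted p = 0.09475). The catalytic subunit gene E(z) stood at 8.25 and 8.23, a change of -0.01.

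The deubiquitinase PR-DUB removes the mark that Sce places. Of 4 measured genes for it and for other PRC1-type subunits, 0 passed in limma and 0 had an unadjusted p below 0.05. All 4 lay above the median level, where 42.3% of genes passed. The change was 0.15 for Asx (SE 0.08, adjusted p = 0.2104) and -0.08 for RYBP, which binds Sce (SE 0.05, adjusted p = 0.3077).

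DNA-binding proteins bring Polycomb complexes to their response elements. Of 6 measured genes for them, 3 rose, 0 fell and 3 did not pass (median 0.18). Of the 6, 5 lay above the median level, at which 42.3% of genes passed in either direction, and 14.5% of all genes rose. Trl, for the GAGA factor, rose by 0.23 (SE 0.06, adjusted p = 0.0126). Spps, a protein of the Sp1 family, rose by 0.23 (SE 0.06, adjusted p = 0.01678). psq, whose protein binds GAGA sites too, rose by 0.22 (SE 0.06, adjusted p = 0.02195). These calls were near the threshold. Without induced replicate 3 the count was 0, and it was 1 without control replicate 1 and 1 without induced replicate 2, with changes of the 3 genes between 0.18 and 0.27 over all arrays left out in turn.

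Of 6 measured genes of the Polycomb group and MBT family outside these complexes, 1 rose and 1 fell. Of the 6, 5 lay above the median level, where 42.3% of genes passed in either direction. mxc rose by 0.26 (SE 0.06, adjusted p = 0.01079). corto, a partner of Polycomb and trithorax proteins, fell by 0.37 (SE 0.10, adjusted p = 0.0264), from arrays at 6.60, 6.50 and 6.32 to 6.27, 6.16 and 5.88. The fall of corto did not pass without control replicate 1 (-0.30, adjusted p = 0.08782), without control replicate 2 (-0.36, adjusted p = 0.08198) or without induced replicate 3 (-0.25, adjusted p = 0.07417), and the list's count was 1 without the first and the last of these arrays. l(3)mbt, which encodes MBT repeats as Sfmbt and Scm do, stood at 0.05 on its brighter probe set, while its dimmer one fell by 0.26 (SE 0.08, adjusted p = 0.04181). Trithorax group proteins counter Polycomb silencing, and of 13 measured genes, 6 rose by 0.19 to 0.30, 0 fell and 7 did not pass (median 0.19). With 1 array left out in turn, 4 to 6 passed. nej rose on its brighter probe set (0.21), but its dimmer one did not pass (0.12, adjusted p = 0.1405). trr did not pass on its brighter probe set (0.14), while its dimmer one rose by 0.20 (adjusted p = 0.02816). All 13 lay above the median level, where 42.3% of genes passed in either direction. Of all genes, 14.5% rose, and the share that rose among genes above the median level was not counted. The 4 with the smallest adjusted p, between 0.001392 and 0.009308, were brm, Snr1 and mor of the Brahma remodelling complex and tna, and they rose by 0.30, 0.30, 0.24 and 0.26. The list's osa, also of the Brahma complex, stood at -0.12 (SE 0.06, adjusted p = 0.1816) and did not pass.

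**Figure D3:**
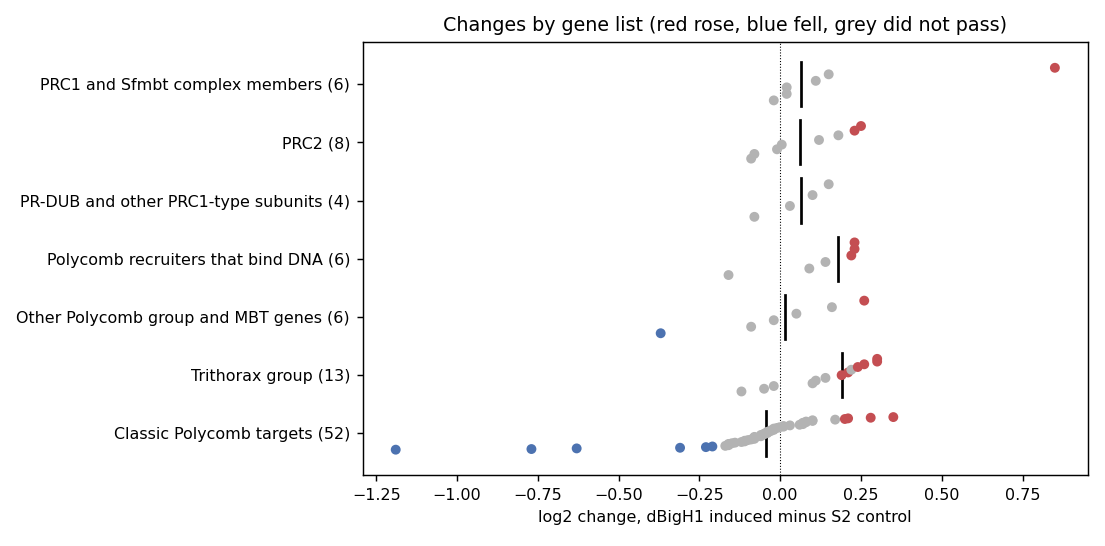
Log2 change (dBigH1 induced minus S2 control, horizontal axis) of each measured gene in 7 lists, with the number of measured genes in brackets and the list's median as a black bar; red genes rose, blue genes fell and grey genes did not pass. Sfmbt, at 0.85, stands apart on the right, and tsh, at -1.19, on the left.

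Classic Polycomb target genes, mostly homeobox and other developmental regulators, were mainly dim. Of 52 measured, 41 had a mean at or below the median of all probe sets. In all, 4 rose, 6 fell and 42 did not pass (median -0.05). Among the 41 dim targets 2 rose and 2 fell, where 14.0% of genes at that level passed, and among the 11 brighter ones 2 rose and 4 fell, where 42.3% passed. The Hox genes Antp, Dfd, Scr and pb were among those that did not pass. They were dim in S2 control, at 3.95, 3.51, 4.14 and 4.71, so a change could have been missed. The other Hox genes of the list, lab, Ubx, abd-A and Abd-B, were not analysed here.

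The zinc finger gene tsh, a partner of Hox proteins in the trunk, was the brightest target. It read 11.42, 11.42 and 11.39 in S2 control and 10.25, 10.24 and 10.18 in induced cells, and its log2 signal fell by 1.19 (SE 0.05, adjusted p = 2.241e-07). The eye selector gene ey fell by 0.77 (SE 0.09, adjusted p = 0.0001649), from 6.87 ± 0.0631 to 6.10 ± 0.188 (n = 3 each). The LIM homeobox gene tup fell by 0.63 (SE 0.06, adjusted p = 3.165e-05). The wing selector gene vg fell by 0.31 (SE 0.07, adjusted p = 0.009621), and its other probe set stood at -0.58 without passing (adjusted p = 0.1281). The mean of both vg probe sets did not pass (-0.44, adjusted p = 0.05522).

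In the other direction, the GATA factor gene pnr read 9.52, 9.59 and 9.54 in S2 control and 9.88, 9.87 and 9.96 in induced cells, a rise of 0.35 (SE 0.05, adjusted p = 0.0007497). The control arrays were all below the induced arrays. The homeobox genes unpg, ap and toy rose by 0.21 (SE 0.06), 0.20 (SE 0.05) and 0.28 (SE 0.08), with adjusted p-values of 0.03428, 0.01871 and 0.03406. Of these, ap and toy were below the median level and their dimmer probe sets did not pass. Averaged over their probe sets, neither passed (ap 0.11, adjusted p = 0.148, and toy 0.06, adjusted p = 0.4008). With 1 array left out in turn, ap passed in 3 of 6 fits, toy in 2 and unpg in 2. unpg also missed the threshold with arrays centred on ribosomal protein genes (adjusted p = 0.05437), and toy did with array weights (adjusted p = 0.05522). Over the whole list, 1 target rose and 6 fell without control replicate 1, 2 rose and 6 fell without control replicate 2, and 2 rose and 5 fell without induced replicate 1. Without induced replicate 2, and likewise without induced replicate 3, 2 rose and 4 fell.

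**Figure D4:**
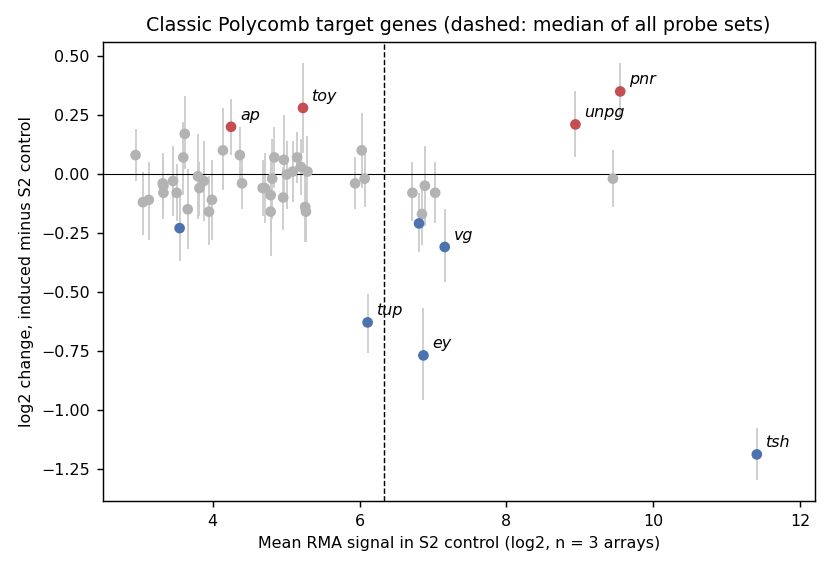
Log2 change (induced minus S2 control, vertical axis, grey lines as 95% intervals) of 52 Polycomb target genes against their mean signal in S2 control (log2, horizontal axis); red genes rose, blue genes fell, and the dashed line is the median of all probe sets, 6.33. Most targets lie to the left of that line, and tsh, the brightest, shows the deepest fall of those plotted.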

How the data were processed

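The authors deposited RMA values, log2 signals with 1 value per probe set, according to the submitters' processing notes. The sources used here do not give its version, its probe definitions or whether rows were filtered. Each sample gave 25 ng of RNA for amplification, per the labels' protocols. RMA makes arrays alike in distribution, so a change shared by all transcripts is removed. Of 18952 probe sets, 183 platform controls were left out and 18769 tested. One gene was named by 13647 of these, several by 402 and no gene by 4720. Current symbols came through the gene identifier for 13544, and 103 kept the annotation's symbol. RefSeq's gene table supplied names and the start and end positions from which neighbours and overlaps were read.

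Induced and control arrays were compared in R 4.3.3 by limma 3.58.1, using lmFit and an untrended eBayes with a group term alone and two-sided p-values. Adjustment was by Benjamini and Hochberg over the 18769 probe sets. "Rose" and "fell" mark an adjusted p below 0.05, and an adjusted p is from this fit unless its sentence names an alternative setting. A gene was represented by its brightest probe set. With 3 arrays per group, an exact permutation test has a smallest p of 0.1 and was not used. Replicates are numbered in the labels, which do not say that they were separate cultures. The p-values therefore cover only the spread among these samples, which could be technical. The fit was also tested on simulated arrays. Members and lists were chosen with earlier results of these data known, so lists have counts and medians only. Named were all measured members, BigH1, RYBP, up to 4 passing genes per list and direction by adjusted p, and for each passing member the gene with the nearest profile. E(z), Asx, l(3)mbt, osa, nej, trr, the Hox genes, the markers and the neighbours were named after values were seen. The alternatives left out dim probe sets, each array in turn or probe sets with an adjusted p of 0.01 or more. Others centred arrays on their medians or on 16 measured ribosomal protein genes (of 50 listed), repeated quantile normalisation, used trended robust moderation or array weights, took replicate numbers as a block, or averaged the probe sets of a gene.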

Additional observations from a re-analysis of the deposited data

How the results depend on the processing

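Sfmbt passed in all 14 alternatives run for it. Each measured member had 1 probe set, so leaving out dim probe sets or averaging probe sets did not alter the members' own values. The count of members that passed, 1, became 2 without dim probe sets, with a further quantile normalisation, with trended robust moderation, with array weights and with the mean of probe sets, and the second gene was phol (log2 change 0.15 to 0.17, adjusted p 0.01036 to 0.03673 in these). With each array left out in turn the count stayed at 1. An adjusted p below 0.01 left 3269 of 5123 probe sets, by construction fewer. Changes near 0 turned sign, within ranges over left-out arrays of -0.01 to 0.05 for Pc, -0.04 to 0.06 for Sce and -0.07 to 0.02 for Scm: Pc was -0.01 without induced replicate 3, Sce was -0.0019 with array weights, -0.04 without control replicate 2 and -0.01 without induced replicate 2, and Scm was 0.02 without control replicate 2; none of these passed in any setting, and the cause was not tested. With the replicate number as a block, 4641 probe sets and 1 member passed, and Sfmbt stood at 0.85 (adjusted p = 7.522e-05). The labels do not say that the numbers pair the samples, so they were not taken as pairs. Deviations of same-numbered arrays correlated at 0.0384, -0.0983 and 0.0135. Those of differently numbered arrays of the 2 groups correlated at -0.143 to 0.144. The number of arrays, 3 per group, limits the precision of every value.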
